A study of Mus musculus with 2 samples.

Results

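The 9 genes Gcg, Pyy, Ppy, Insl5, Sst, Cck, Nts, Tac1 and Tph1 encode hormones, neuropeptides and an amine-making enzyme of the enteroendocrine cells of the gut. They were chosen by symbol among the 31053 genes of the deposited count matrices, and each symbol matched 1 gene. Their counts were read in single cells with at least 5 unique molecular identifiers (UMIs, 1 for each captured RNA molecule) of Chga and Chgb together. These 2 genes encode granins, acidic proteins that are packed with hormones into secretory granules, and cells at or above that minimum are called gated cells below. The gate held 210 of 9077 control cells and 386 of 7072 Mettl14_cKO cells.

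The study captured isolated colonic crypt cells of C57BL/6 mice, 4 weeks old, with droplet-based 10x Genomics single-cell RNA sequencing. Control mice carried floxed Mettl14 alleles, M14(f/f), and the Mettl14_cKO mice carried the same alleles with Villin-Cre, M14(f/f);Villin-Cre. Villin-Cre is a recombinase driven by a promoter of the gut epithelium, and Mettl14 encodes a subunit of the enzyme that writes N6-methyladenosine on mRNA. Each of the 2 libraries, 1 per genotype, came from pooled cells of 3 mice, so no error between animals could be given and none of the differences was tested. Except for limits from a count of 0, every interval below is a 95% interval for counting error only: exact Poisson for levels, exact binomial for shares, and exact conditional for ratios.

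Enteroendocrine cells are scattered single cells of the epithelium that sense the contents of the gut and release hormones or amines from their basal side. In the colon, L cells make peptides from proglucagon together with peptide YY and insulin-like peptide 5, D cells make somatostatin, and enterochromaffin cells make serotonin with the enzyme encoded by Tph1. A single cell can make several of these products, and the mixture varies along the gut and with the age of the cell.

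The control library was sequenced to 111239295 UMIs and the Mettl14_cKO library to 89729527, and gated cells held a median of 5638.5 and 3996 UMIs. In gated cells Mettl14 had 13 and 17 UMIs; the sources used here do not give the part of the gene that was deleted, so these UMIs check nothing. Xist, transcribed from the inactive X chromosome, was at 0.0644 CPM (a gene's counts scaled to a common library total) over all kept control cells and at 312 over Mettl14_cKO cells, and 4 Y-linked genes summed to 103 and 0.0700 CPM, so genotype and sex cannot be told apart. The libraries shared 33 cell barcodes, 15 of them among kept cells and 0 among gated cells. Beside Chga and Chgb, which set the gate, all 10 other enteroendocrine markers examined were present in both sets of gated cells, at 1042 and 2670 CPM in sum, against 19.4 and 12.4 CPM in ungated cells. Markers of goblet cells were at 20803 and 7308 CPM in gated cells, and those of colonocytes at 3770 and 1113. Myeloid markers were at 6.61 and 190 CPM, with S100a8 and S100a9 at 0 in control cells. T or NK markers were at 11.9 and 11.6 CPM, tuft markers at 9.26 and 10.4, B or plasma markers at 1.76 and 12.7, and stem and cycling markers at 179 and 48.9. Enteric neuron or glia markers were at 45.0 and 114 CPM, mostly from Snap25, which enteroendocrine cells also use. What part these other cells' RNA had in the results was not tested.

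The genes lie apart in the genome, except Ppy and Pyy. On GRCm38, Gcg spans chr2:62474530-62483650, Insl5 chr4:103017872-103026842, Tac1 chr6:7554879-7565834, Tph1 chr7:46644641-46672537 and Cck chr9:121489824-121495694. Nts spans chr10:102481756-102490486 and Sst chr16:23889573-23890958. Ppy, at chr11:102099930-102101319, ends 5356 bases before Pyy, at chr11:102106676-102107832. Both are on the minus strand and belong to the neuropeptide Y family. No stretch of 60 bases was shared between the last 500 bases of any of the 9 genes and another gene, so a tag there would have had 1 source.

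The sequences before the starts of 5 genes are shown because Gcg, Pyy, Insl5 and Cck were found in the same cells and Tph1 mostly in other cells. They come from RefSeq on GRCm38.p6, are written 5′ to 3′ on the strand of the gene, and stop where the gene begins. All 5 genes are on the minus strand. Capitals mark matches, on either strand, to 5 motifs: CAGATG, an E-box of the kind that NeuroD1 binds (found in 14.4% of 32851 RefSeq windows of 250 bases), the homeodomain core TAATTA (4.84%), the cyclic AMP response element TGACGTCA (1.55%), the forkhead core GTAAACA (3.17%) and the RFX site GTTGCCA (3.66%). The motifs were settled with the sequences in view, and a match is a description only.
Gcg, chr2:62483654-62483903: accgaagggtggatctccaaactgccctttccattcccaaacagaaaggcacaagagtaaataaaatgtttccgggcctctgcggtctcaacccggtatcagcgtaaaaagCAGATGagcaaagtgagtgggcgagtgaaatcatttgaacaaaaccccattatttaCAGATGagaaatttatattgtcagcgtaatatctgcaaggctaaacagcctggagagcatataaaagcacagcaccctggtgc
Pyy, chr11:102107833-102108082: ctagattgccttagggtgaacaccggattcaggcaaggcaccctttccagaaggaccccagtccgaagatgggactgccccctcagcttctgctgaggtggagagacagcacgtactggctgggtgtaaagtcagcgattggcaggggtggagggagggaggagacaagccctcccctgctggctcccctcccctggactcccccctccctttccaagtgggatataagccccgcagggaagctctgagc
Insl5, chr4:103026843-103026978: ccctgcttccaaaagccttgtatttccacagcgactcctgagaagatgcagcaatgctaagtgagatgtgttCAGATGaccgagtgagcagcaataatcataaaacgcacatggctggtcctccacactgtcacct
Cck, chr9:121495695-121495944: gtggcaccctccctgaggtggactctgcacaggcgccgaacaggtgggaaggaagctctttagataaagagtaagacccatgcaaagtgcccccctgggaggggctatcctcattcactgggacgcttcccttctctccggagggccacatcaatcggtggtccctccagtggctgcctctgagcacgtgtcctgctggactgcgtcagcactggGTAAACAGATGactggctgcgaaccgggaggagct
Tph1, chr7:46672538-46672787: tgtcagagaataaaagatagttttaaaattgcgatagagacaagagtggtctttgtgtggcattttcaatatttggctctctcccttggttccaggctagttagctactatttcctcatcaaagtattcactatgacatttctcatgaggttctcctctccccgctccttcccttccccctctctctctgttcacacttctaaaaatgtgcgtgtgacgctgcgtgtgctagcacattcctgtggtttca
Gcg held CAGATG at 2 places, Insl5 at 1 place, and Cck at 1 place where it overlapped GTAAACA. Pyy and Tph1 held none of the 5 motifs in these stretches. Among the windows not shown, that of Sst held TGACGTCA and that of Tac1 held CAGATG and TAATTA. A second window of Tph1, inside the gene, held TAATTA, and the part of the shown Insl5 window inside the gene held GTAAACA. Another Insl5 window, chr4:103027272-103027521, lies outside the gene and held none of the 5 motifs. Nor did the windows of Ppy and Nts or a second one of Pyy. The Insl5 stretch shown has 136 bases, fewer than the 250 of the windows behind the percentages.

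Gated cells were 2.31% (2.01 to 2.64) of kept control cells and 5.46% (4.94 to 6.01) of kept Mettl14_cKO cells, a ratio of 2.36 (1.99 to 2.80). Sums over the 9 genes made up 3.78% of all UMIs in gated control cells and 6.45% in gated Mettl14_cKO cells. At least 3 UMIs of a gene were taken as detection. With that minimum 24 control cells (11.4%) and 61 Mettl14_cKO cells (15.8%) held none of the 9 genes, and 11 and 3 cells held 5 of them. Cells just inside the gate, with 5 or 6 UMIs of Chga and Chgb, numbered 17 and 7, and cells just outside it, with 3 or 4, numbered 13 and 16.

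Free RNA of the suspension was read from cells of another kind. T or NK cells, taken here as cells with CD3 transcripts and no Epcam, should lack the 9 genes, and 0 of 139 control and 0 of 272 Mettl14_cKO cells of that kind reached 3 UMIs of any of them, which allows shares of up to 2.16% and 1.10%, taken as 3 cells of the total. A single UMI was no such evidence: 12.2% and 12.1% of those cells held a UMI of Pyy, and 7.19% and 2.57% held one of Gcg, at median depths of 1612 and 1812 UMIs. For Tph1 these shares were 0.719% and 0.368%. These cells were shallower than gated cells. Other epithelial cells outside the gate, 8352 and 5327 with Epcam, had median depths of 10625 and 11180 UMIs. Of these, 0.730% and 0.657% reached 3 UMIs of Pyy, 0.539% and 0.113% of Gcg, and 0.419% and 0.282% of Tac1. They can include enteroendocrine cells that the gate missed, so free RNA at that depth was not measured. Among 33 and 26 tuft cells, 1 control cell reached 3 UMIs of Tac1 and none reached 3 UMIs of the other 8 genes. Cells with at least 2 UMIs of Neurog3, the transcription factor that starts enteroendocrine development, numbered 26 and 14. None of the 20 and 6 of them outside the gate had 3 UMIs of any of the 9 genes.

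**Figure D1:**
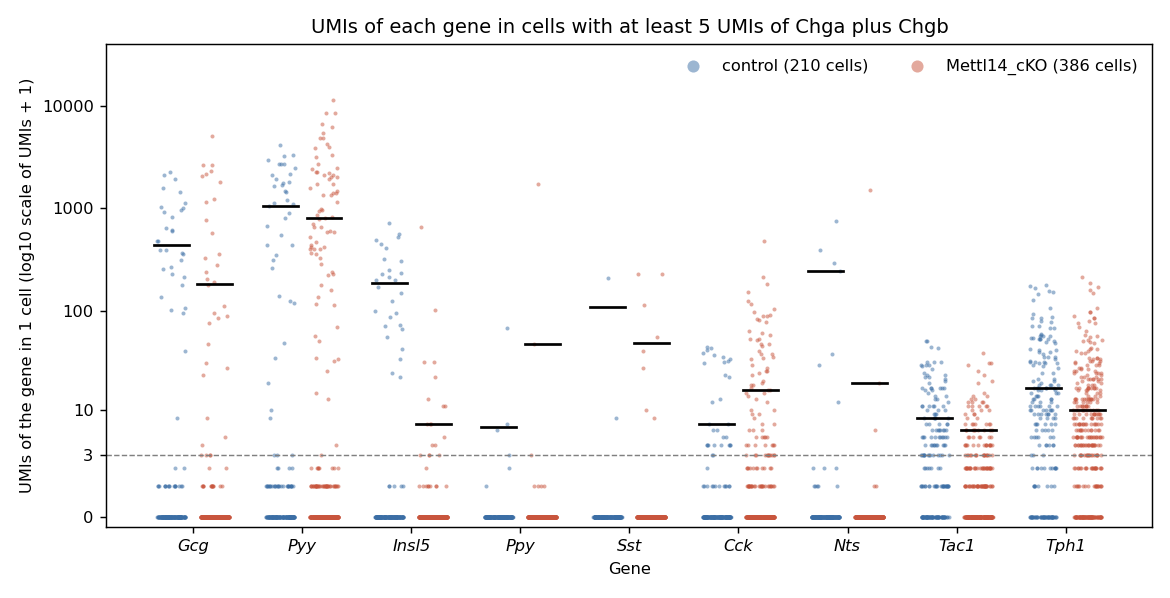
UMIs of each of the 9 genes in each gated cell (log10 axis of UMIs + 1), 210 control cells in blue and 386 Mettl14_cKO cells in red; black bars are medians of the cells with at least 3 UMIs, and the dashed line is 3 UMIs. Insl5 lies at 22 to 713 UMIs in 28 control cells and mostly under 10 in Mettl14_cKO cells, and Cck reaches 476 UMIs there against 44 in control cells.

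Of the 9 genes, 4 were at least 2-fold higher in gated Mettl14_cKO cells (Pyy, Ppy, Sst and Cck), 1 was at least 2-fold lower (Insl5) and 4 were between (Gcg, Nts, Tac1 and Tph1). Over all 8700 genes with at least 10 CPM in 1 of the libraries and 10 UMIs in both together, 11.5% were at least 2-fold higher, 6.34% at least 2-fold lower and 17.9% past 2-fold in either direction. The median log2 ratio was 0.02 over the 9 genes and 0.12 over the 8700. All log2 ratios are of CPM plus 1, Mettl14_cKO over control, where CPM is the gene's UMIs in gated cells over all UMIs in those cells, on the usual CPM scale.

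Among the peptides of L cells, Pyy was higher in Mettl14_cKO cells, Gcg was at about the same summed level in the gate as set, and Insl5 was lower. Pyy encodes peptide YY, which slows gut transit and lowers appetite. It had 49959 UMIs in gated control cells and 128598 in gated Mettl14_cKO cells, or 22024 CPM (21831 to 22218) and 49545 CPM (49275 to 49817). The ratio was 2.25 (2.23 to 2.27), a log2 ratio of 1.17. At least 3 UMIs were held by 41 control cells (19.5%, 14.4 to 25.5) and 77 Mettl14_cKO cells (19.9%, 16.1 to 24.3). The gate was also widened to any cell with at least 10 UMIs of 1 of the 9 genes. There these shares were 31.0% (77 of 248) and 23.7% (98 of 414). Cells enter that gate by the genes then counted, so its shares and levels are partly set by that choice. With the gate set by 10 other enteroendocrine markers the shares were 30.8% and 21.1%. Those markers themselves differed, at 1042 and 2670 CPM in sum in the gate as set. What part this had in the results of their gate was not tested. Per detecting cell, Pyy ranged from 3 to 4119 UMIs with a median of 1055 in control cells, and from 3 to 11295 with a median of 798 in Mettl14_cKO cells. The median share of a detecting cell's UMIs was 11.0% and 15.0%, and the highest share 33.4% and 44.2%. The 2 sets of cells overlapped over most of their range, and the Mettl14_cKO cells reached higher. With each cell given the same weight the log2 ratio of Pyy was 0.39, and with the gate set by the 10 other markers it was 0.91, both under 2-fold.

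Gcg encodes proglucagon, from which intestinal cells cut GLP-1 and GLP-2. Its summed level was 9445 CPM (9319 to 9573) in control cells and 9555 CPM (9436 to 9674) in Mettl14_cKO cells. The share of gated cells with at least 3 UMIs was 15.2% (32 cells, 10.7 to 20.8) and 8.81% (34 cells, 6.18 to 12.1). Detecting cells held 8 to 2245 UMIs with a median of 435.5 in control cells, and 3 to 5066 with a median of 184.5 in Mettl14_cKO cells. The share of gated cells with Gcg was thus smaller among Mettl14_cKO cells, and the highest of those cells held more. The gate touched this gene unequally: it held 61.3% of all Gcg UMIs of kept control cells and 94.4% of those of kept Mettl14_cKO cells, and 48 control against 8 Mettl14_cKO cells outside it had at least 3 UMIs. In the widened gate Gcg was at 11908 and 9204 CPM, in 62 of 248 and 42 of 414 cells. With the gate set by 10 other markers it was at 14849 and 9364 CPM, and with cells thinned to 2000 UMIs each at 9641 and 5541 CPM, so its summed level was close only under some settings.

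Insl5 encodes insulin-like peptide 5, a relaxin-family hormone of the distal colon and rectum. It had 6219 UMIs in gated control cells and 938 in gated Mettl14_cKO cells, or 2742 CPM (2674 to 2811) and 361 CPM (339 to 385), 7.59-fold lower (7.08 to 8.13). At least 3 UMIs were present in 28 control cells (13.3%, 9.05 to 18.7) and 18 Mettl14_cKO cells (4.66%, 2.79 to 7.27). In the control these cells held 22 to 713 UMIs with a median of 185.5, and no gated control cell lay between 3 and 21. In the Mettl14_cKO library they held 3 to 660 UMIs with a median of 7. Most of the remaining Insl5 came from 1 cell, which held 660 of the 938 UMIs (70.4%), followed by cells with 102 and 31. Without the 5 richest cells of each library the log2 ratio moved from -2.92 to -5.39, and it was at or below -2.81 under each of the 12 other settings tried. The gate held 89.5% and 97.9% of the UMIs of this gene.

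Ppy encodes pancreatic polypeptide, the neighbour of Pyy on chromosome 11. Its 87 and 1769 UMIs came to 38.4 and 682 CPM, a ratio of 17.8 (14.3 to 22.3). It rested on single cells: 1715 of the 1769 UMIs (96.9%) were in 1 Mettl14_cKO cell and 68 of the 87 (78.2%) in 1 control cell. The next cells held 47 and 7 UMIs, and 4 control and 3 Mettl14_cKO cells were detecting. Without the 5 richest cells the log2 ratio was 0.30 in place of 4.12. The same Mettl14_cKO cell was the one with 660 UMIs of Insl5; of its 28325 UMIs, 11295 were Pyy, 238 Gcg and 80 Cck. The control cell with 68 UMIs of Ppy held 2723 of Pyy, 478 of Gcg and 233 of Insl5, so in both libraries the cell with the most Ppy was also rich in the L cell peptides.

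Cck, higher in Mettl14_cKO cells, encodes cholecystokinin, best known from the upper small intestine, where it empties the gallbladder and stimulates the pancreas. It had 521 and 3231 UMIs, or 230 CPM (210 to 250) and 1245 CPM (1202 to 1288), a ratio of 5.42 (4.94 to 5.96). Detecting were 30 control cells (14.3%, 9.85 to 19.8) and 81 Mettl14_cKO cells (21.0%, 17.0 to 25.4). They held 3 to 44 UMIs with a median of 7, and 3 to 476 UMIs with a median of 16. No gated control cell held 50 UMIs or more, and 20 gated Mettl14_cKO cells did, 7 of them with 100 or more. Outside the gate 3 control and 0 Mettl14_cKO cells held 50 or more. The log2 ratio was 2.43, and between 1.62 and 2.92 under each of the 12 other settings. The share of cells was less steady: with the gate set by 10 other markers it was 24.1% and 22.3%, and the gate held 55.8% of the control UMIs of Cck against 95.9% in Mettl14_cKO cells.

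Nts encodes neurotensin and Sst encodes somatostatin, which restrains the secretion of neighbouring cells; both rested on a few cells. Nts had 1778 and 1537 UMIs (784 and 592 CPM), of which 1510 (98.2%) were in 1 Mettl14_cKO cell. The control had 7 detecting cells, with 12 to 760 UMIs and a median of 244, and the Mettl14_cKO library had 3, with 1510, 19 and 6. The log2 ratio was -0.40, was -4.64 without the 5 richest cells and became 1.60 with a gate of 10 UMIs. The gate held 54.0% and 98.7% of its UMIs, and in the widened gate Nts was detected in 26 and 4 cells, at 1027 and 548 CPM. Sst had 217 and 713 UMIs (95.7 and 275 CPM), a ratio of 2.87. It was detected in 2 control cells, with 209 and 8 UMIs, and in 8 Mettl14_cKO cells, with 8 to 231 UMIs and a median of 47.5. The gate held 39.2% and 92.8% of the Sst UMIs, and in the widened gate Sst was detected in 6 and 9 cells, at 185 and 265 CPM, which was under 2-fold. Thinned to 2000 UMIs per cell it was at 378 and 366 CPM, with no excess in Mettl14_cKO cells.

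Tph1 encodes tryptophan hydroxylase 1, the rate-limiting enzyme of serotonin synthesis outside the brain. With the gate and minimum as set, at full depth, its level and share of gated cells were about the same in both libraries. Tph1 had 4354 and 5045 UMIs, or 1919 CPM (1863 to 1977) and 1944 CPM (1890 to 1998). Detecting cells were 135 (64.3%, 57.4 to 70.8) and 248 (64.2%, 59.2 to 69.0). They held 3 to 177 UMIs with a median of 17 in control cells and 3 to 215 with a median of 10 in Mettl14_cKO cells. Thinned to 2000 UMIs per cell, which left out 26 and 68 shallower cells, 54.3% (46.9 to 61.7) of 184 control cells and 67.0% (61.5 to 72.1) of 318 Mettl14_cKO cells held at least 1 UMI of Tph1, at 4147 and 2605 CPM. With each cell given the same weight the log2 ratio was -0.74. At full depth and a minimum of 3 UMIs, the gate by 10 other markers, whose sum itself differed between the libraries, gave shares of 51.8% and 62.0%. At a minimum of 10 UMIs of Tph1 in the gate as set, the shares were 46.7% and 34.2%.

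Tac1 encodes the precursor of substance P and neurokinin A, which enterochromaffin cells of the colon can make beside serotonin. It had 1234 and 813 UMIs, or 544 CPM (514 to 575) and 313 CPM (292 to 336), 1.74-fold lower. At least 3 UMIs were present in 99 control cells (47.1%, 40.2 to 54.1) and 85 Mettl14_cKO cells (22.0%, 17.99 to 26.5). They held 3 to 50 UMIs with a median of 8 and 3 to 38 with a median of 6. Thinned to 2000 UMIs, 47.3% and 35.8% of cells held a UMI. The log2 ratio was -0.79, and it was negative in each of the 12 other settings (-1.18 to -0.57).

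**Figure D2:**
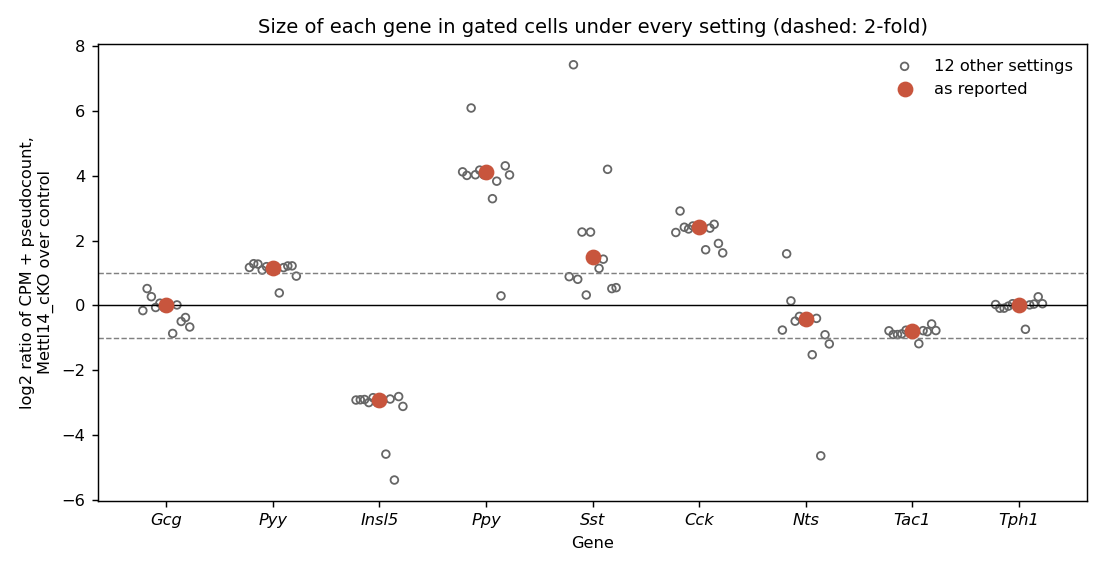
Log2 ratio of CPM plus pseudocount in gated cells, Mettl14_cKO over control, for each of the 9 genes as reported (filled) and under 12 other settings (open); dashed lines mark 2-fold. Insl5 stays at or below -2.81 and Cck at or above 1.62, while Nts runs from -4.64 to 1.60 and Sst from 0.32 to 7.43.

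The 9 genes divided the gated cells into a larger set led by Tph1 and a smaller set led by Pyy. By the gene with most UMIs in a cell, with at least 3, Tph1 led 114 control cells (54.3%, 47.3 to 61.2) and 226 Mettl14_cKO cells (58.5%, 53.5 to 63.5). Pyy led 29 (13.8%, 9.45 to 19.2) and 71 (18.4%, 14.7 to 22.6), and Tac1 led 27 (12.9%, 8.65 to 18.1) and 14 (3.63%, 1.997 to 6.01). Gcg led 8 and 3 cells, Cck 2 and 3, and Sst 1 and 4. Insl5, Ppy and Nts led none of the gated cells of either library, and 5 and 4 cells were tied. The control cells led by Gcg held 137 to 2108 UMIs of it. These are numbers of UMIs, which also depend on how well each RNA is captured. The gate is set by Chga and Chgb, which differed between the sets. Cells led by Tph1 held a median of 161 and 162 UMIs of these genes, cells led by Pyy 18 and 26, and cells led by Gcg 7.5 and 47. The sizes of the sets thus hold for this gate, and its part in them was not tested. The difference in the share of cells led by Tph1 was positive in 8 of 10 other settings and negative in 2.

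Across gated cells, the log-scaled levels of Tph1 and Pyy ran against each other, with Pearson's r of -0.55 in 210 control and -0.66 in 386 Mettl14_cKO cells. Gcg and Pyy had r of 0.89 and 0.61, Insl5 and Pyy 0.90 and 0.50, and Cck and Gcg 0.69 and 0.65. Tac1 and Tph1 had r of 0.57 and 0.43. These values describe cells of 1 library each, which share that library's depth and free RNA, and carry no test.

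**Figure D3:**
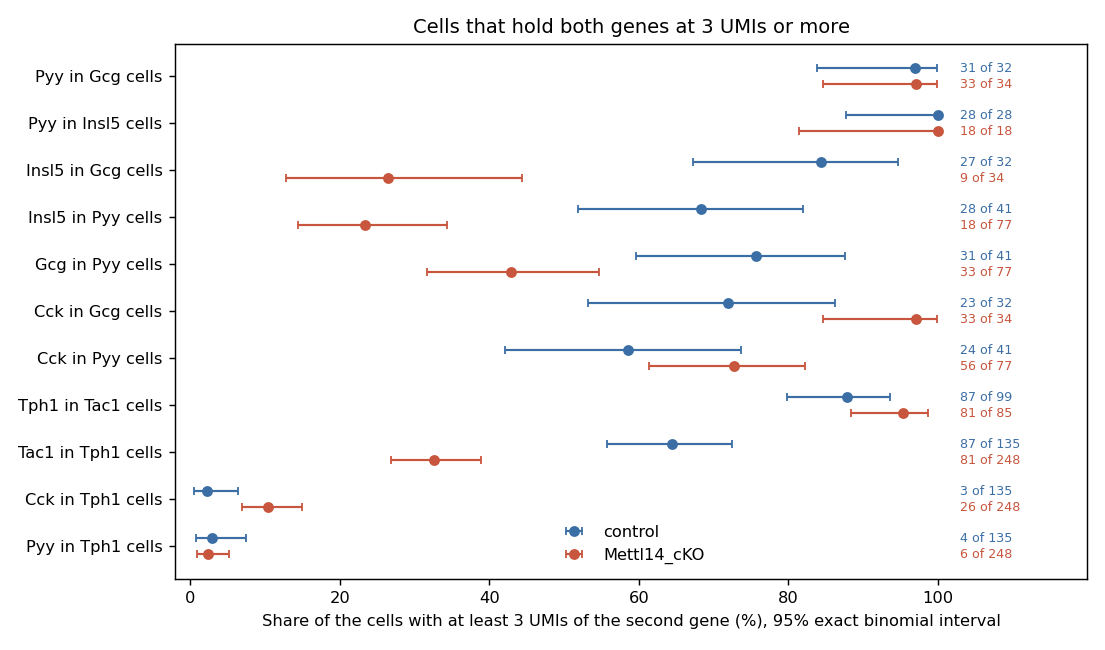
Share of the cells with at least 3 UMIs of the gene named last that also hold at least 3 UMIs of the gene named first, with 95% exact binomial intervals and numbers of cells, control in blue and Mettl14_cKO in red. The intervals of the libraries do not overlap for Insl5 in Gcg cells (84.4% and 26.5%), Insl5 in Pyy cells, Gcg in Pyy cells, Tac1 in Tph1 cells or Cck in Tph1 cells (2.22% and 10.5%). They are for counting error among cells only and do not test a difference between genotypes.

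Within the peptide cells, Pyy accompanied Gcg in both libraries: 31 of 32 control Gcg cells and 33 of 34 Mettl14_cKO Gcg cells held at least 3 UMIs of it. The reverse differed, since 31 of 41 control Pyy cells (75.6%, 59.7 to 87.6) and 33 of 77 Mettl14_cKO Pyy cells (42.9%, 31.6 to 54.6) held Gcg. Every Insl5 cell held Pyy, 28 of 28 and 18 of 18. Insl5 was present in 28 of 41 control Pyy cells (68.3%, 51.9 to 81.9) and 18 of 77 Mettl14_cKO Pyy cells (23.4%, 14.5 to 34.4). It was present in 27 of 32 control Gcg cells (84.4%, 67.2 to 94.7) and 9 of 34 Mettl14_cKO Gcg cells (26.5%, 12.9 to 44.4). The counting intervals of the libraries were apart for Gcg in Pyy cells and for Insl5 in Pyy cells and in Gcg cells. The sign of each of these differences was the same under 11 of 11 other settings. The intervals hold no error between animals and the settings reuse the same libraries, so neither tests a difference between genotypes. In the widened gate, which brought in control cells with little Chga and Chgb, Insl5 was present in 46 of 62 and 11 of 42 Gcg cells. Cells enter that gate by the same genes, so these counts are not a separate check. With the gate by 10 other markers Insl5 was present in 39 of 51 and 11 of 38 Gcg cells.

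The Insl5 difference was also present among the cells richest in Pyy, a set chosen after the values were seen. All 21 control cells with at least 1000 UMIs of Pyy held Insl5, with 22 to 713 UMIs and a median of 227. Of 33 Mettl14_cKO cells with that much Pyy, 13 (39.4%, 22.9 to 57.9) held at least 3 UMIs of Insl5, and the median was 0. The median depths of these cells were 9683 and 10655 UMIs. Gcg was present in 20 of the 21 and 23 of the 33. Summed over all Pyy cells, Insl5 was at 12519 and 1046 CPM, 12.0-fold lower (11.2 to 12.8), and Gcg at 42842 and 26388 CPM, 1.62-fold lower.

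**Figure D4:**
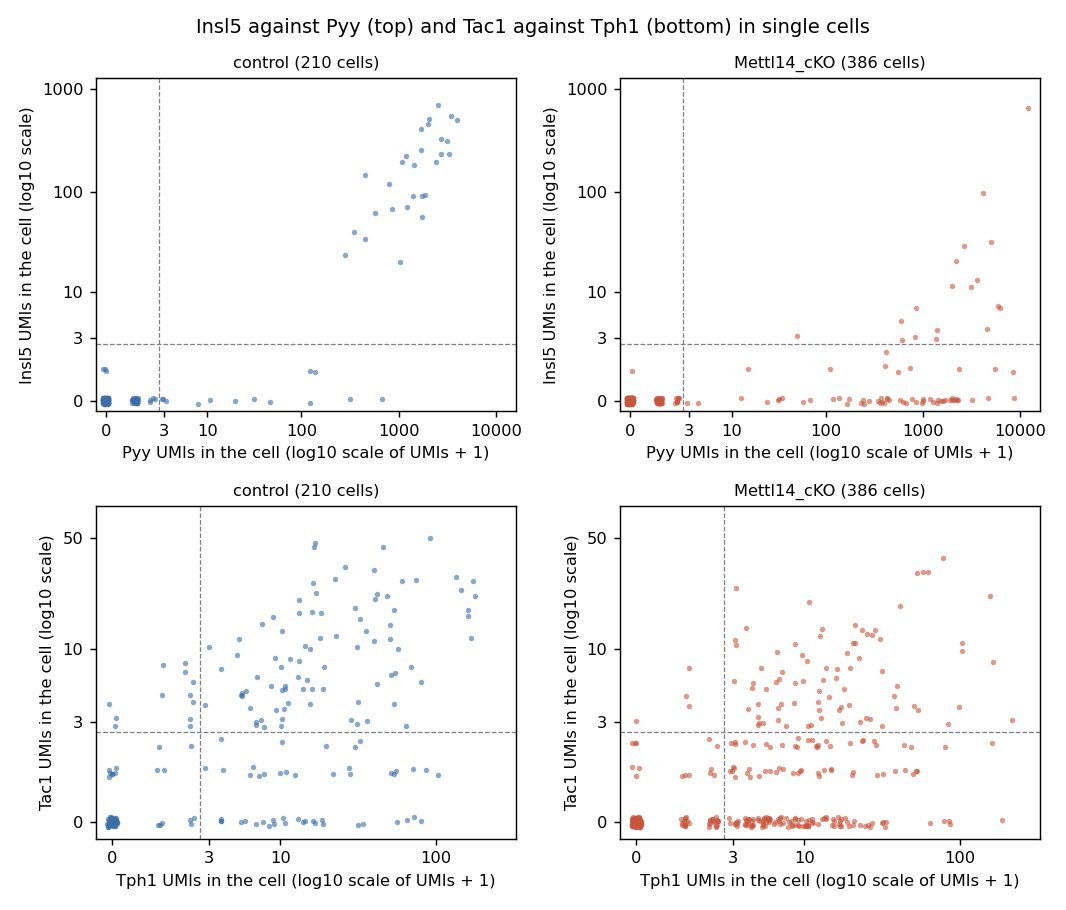
UMIs of Insl5 against Pyy (top) and of Tac1 against Tph1 (bottom) in each gated cell, on log10 axes of UMIs + 1 with small random offsets so that equal counts can be seen; dashed lines set off 3 UMIs or more. The 21 control cells with at least 1000 UMIs of Pyy all lie at 22 UMIs of Insl5 or above, and 33 Mettl14_cKO cells with as much Pyy spread from 0 to 660.

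The share of Gcg cells with Cck was larger among Mettl14_cKO cells. Of control Gcg cells 23 of 32 (71.9%, 53.3 to 86.3) and of Mettl14_cKO Gcg cells 33 of 34 (97.1%, 84.7 to 99.9) held Cck, with intervals that overlap at 84.7 to 86.3. Of Pyy cells, 24 of 41 (58.5%, 42.1 to 73.7) and 56 of 77 (72.7%, 61.4 to 82.3) held it, and the intervals again overlap. The amount per cell differed more: summed over Gcg cells, Cck was at 1153 and 5540 CPM, and its median was 6.5 and 42.5 UMIs. At a minimum of 10 UMIs of Cck, 10 of the 21 control cells richest in Pyy held it (47.6%, 25.7 to 70.2), and 28 of the 33 Mettl14_cKO cells (84.8%, 68.1 to 94.9).

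Combinations of genes in 1 cell differed in the same places. Shares here are of all gated cells of a library. Gcg with Pyy and Insl5, and no other of the 9 genes, was found in 8 control (3.81%) and 0 Mettl14_cKO cells. Those 3 genes with Cck were found in 8 and 7 (3.81% and 1.81%). Gcg with Pyy and Cck, and no other of the 9 genes, was found in 2 control and 20 Mettl14_cKO cells (0.952% and 5.18%). Pyy with Cck alone was found in 1 and 14 cells (0.476% and 3.63%), and Pyy alone in 2 and 10 (0.952% and 2.59%). In all, 186 control cells showed 21 combinations and 325 Mettl14_cKO cells showed 27, which rest on unequal numbers of cells.

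Among the cells with the serotonin enzyme, the share that also held Tac1 was smaller for Mettl14_cKO. Of control Tph1 cells 87 of 135 (64.4%, 55.8 to 72.5) and of Mettl14_cKO Tph1 cells 81 of 248 (32.7%, 26.9 to 38.9) held at least 3 UMIs of Tac1. Thinned to 2000 UMIs and counted at 1 UMI, the shares were 71.0% (61.1 to 79.6) and 48.4% (41.5 to 55.3), and the difference was negative under 11 of 11 other settings. Among cells with at least 10 UMIs of Tph1, Tac1 was present in 67 of 98 (68.4%, 58.2 to 77.4) and 55 of 132 (41.7%, 33.2 to 50.6). Among those with at least 50 it was present in 20 of 30 and 12 of 22, where the intervals overlap. The reverse was close in both libraries, since 87 of 99 and 81 of 85 Tac1 cells held Tph1. Cells with Tph1 and none of the other 8 genes numbered 47 (22.4%) and 150 (38.9%), and cells with Tph1 and Tac1 alone 81 (38.6%) and 69 (17.9%).

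Peptides of the other set were rare in Tph1 cells. Pyy was present in 4 of 135 and 6 of 248 of them, and Gcg in 0 and 2, which for the control allows a share of up to 2.22% by the same rule. Cck was present in 3 of 135 (2.22%, 0.461 to 6.36) and 26 of 248 (10.5%, 6.96 to 15.0), and at 14.1 and 272 CPM over these cells. The most Cck in a Tph1 cell was 4 UMIs in the control and 117 in the knockout library. Chgb, 1 of the genes of the gate, was at 15006 and 42444 CPM in Tph1 cells, and Tph1 itself at 3038 and 3428.

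The genes most like each member across gated cells were found by the lower of the Pearson correlations in the 2 libraries, over 8151 genes and only for members detected in at least 20 gated cells of each. Those most like Tph1 were Chgb (0.81 in control and 0.78 in Mettl14_cKO cells), Chga (0.80 and 0.62) and Slc18a1 (0.55 and 0.49), the vesicular monoamine transporter that loads serotonin into granules. For Tac1 they were Chgb (0.59 and 0.42), Ddc (0.52 and 0.37), the decarboxylase that completes serotonin synthesis, and Chga (0.53 and 0.36). For Pyy they were Scg2 (0.78 and 0.74), a granin, Cldn14 (0.72 and 0.70), a claudin, and Etv1 (0.78 and 0.61), a transcription factor. Gcg was most like Scg2 (0.73 and 0.59), Cldn14 (0.70 and 0.45) and Qpct (0.63 and 0.44), an enzyme that modifies the first residue of peptides. Cck was most like Etv1 (0.59 and 0.48), Cldn14 (0.44 and 0.52) and Car8 (0.45 and 0.44). Chga and Chgb also define the gate, and what part the gate had in their likeness to Tph1 and Tac1 was not tested.

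Other genes of hormone cells were read from 7 lists, whose counts stand against the 11.5% higher and 6.34% lower of all genes. Of the 20 other gut hormones, 5 passed the minimum of 10 CPM, with 1 higher, 3 lower and a median log2 ratio of -1.37. The higher one was Sct, which encodes secretin, at 1642 and 3743 CPM (1.19). The lower ones were Ghrl, encoding ghrelin, at 291 and 112 CPM (-1.37), Iapp, encoding islet amyloid polypeptide, at 182 and 34.3 CPM (-2.37), and Guca2a, encoding guanylin, at 238 and 59.7 CPM (-1.97). Guca2b was at 67.9 and 82.8 CPM. At least 3 UMIs of Sct were held by 46.7% of gated control cells and 32.9% of gated Mettl14_cKO cells. Of the Sct UMIs in gated Mettl14_cKO cells, 20.2% were in 1 cell. The gate held 26.6% and 62.9% of all Sct UMIs of kept cells, and 33.7% and 95.1% of those of Ghrl. Guanylin is also made by colonocytes and goblet cells, and Guca2a was at 563 and 140 CPM in ungated cells. In gated Mettl14_cKO cells 5 of 7 goblet markers and 3 of 6 colonocyte markers were lower, and the others were higher.

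Granins and the enzymes that cut prohormones were mostly higher: of 17 genes 16 passed, 9 were at least 2-fold higher, 0 lower, and the median was 1.10. The list holds the 2 genes of the gate; without them 14 of 15 passed, 8 were higher, 0 lower, and the median was again 1.10. Scg2 was at 74.9 and 479 CPM (log2 ratio 2.66) and Scg5, which escorts a prohormone convertase, at 126 and 564 (2.15). Pcsk1, the convertase that cuts GLP-1 from proglucagon, was at 65.2 and 222 CPM (1.75), and Cpe, which trims the cut ends, at 270 and 639 (1.24). Chgb (1.34), Scg3 (1.31), Qpct (1.18), Nucb2 (1.14) and Vgf (1.05) were the others. Chga (0.67), Pcsk1n (0.81) and Resp18 (-0.34) were between.

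The exocytosis list had 17 of 20 genes past the minimum, with 7 higher, 0 lower and a median of 0.84. Syt7, a calcium sensor of granule release, was at 46.7 and 211 CPM (2.15), and Snap25, of the fusion complex, at 39.2 and 104 (1.38). Also past 2-fold were Syt13 (1.51), Cadps (1.17), Syn2 (1.05) and Rab27a (1.04). Rab3c (0.84), Cplx2 (0.84) and Rab3d (-0.32) were among the highest of the list and between.

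Amine genes differed less: 9 of 15 passed, 1 was higher, 1 lower, and the median was -0.19. Slc18a1 was at 69.2 and 147 CPM (1.07), and Maob, which breaks down amines, at 12.3 and 3.08 (-1.71, from 28 and 8 UMIs). Ddc was at 327 and 391 CPM (0.26), Qdpr at 170 and 149 (-0.19), Gch1 at 125 and 67.8 (-0.88) and Spr at 98.7 and 126 (0.34). Qdpr, Gch1 and Spr make or recycle the cofactor of Tph1.

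Transcription factors of the lineage were mixed, with 24 of 27 past the minimum, 4 higher, 3 lower and a median of 0.35. Neurod1 was at 171 and 650 CPM (1.92), Sox4 at 135 and 357 (1.39), St18 at 11.5 and 28.9 (1.26) and Rfx6 at 8.38 and 19.6 (1.14). Pax4 was at 37.9 and 5.78 CPM (-2.52), Mlxipl at 12.3 and 1.93 (-2.19) and Mnx1 at 10.6 and 3.85 (-1.25). Insm1 (0.74) and Nr4a1 (0.30) were among the highest and between.

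Sensory receptors and channels went both ways, with 15 of 31 past the minimum, 6 higher, 4 lower and a median of 0.81. Piezo2, the mechanically gated channel of enterochromaffin cells, was at 19.8 and 73.2 CPM (1.83), Sstr1 at 7.94 and 30.4 (1.81), Abcc8 at 10.1 and 28.9 (1.42) and Ffar2, a receptor for short-chain fatty acids, at 137 and 309 (1.17). Cacna1h (1.08) and Slc15a1, at 11.0 and 23.1 CPM, were also past 2-fold. Gpbar1, a bile acid receptor, was at 14.1 and 2.70 CPM (-2.03), Gpr119, a lipid receptor, at 13.7 and 4.24 (-1.49), Slc5a1, a sodium and glucose transporter, at 44.5 and 19.6 (-1.14) and Olfr78 at 38.8 and 18.1 (-1.06). Ffar4 (0.41) and Scn3a (0.82) were between.

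Few receptors for the products of the 9 genes were found in the gated cells. Of 29 listed genes, which include the enzymes Dpp4 and Mme, 3 passed the minimum: the receptors Npy1r and Sstr1, and Dpp4. Another 16 had no UMI in either library. Npy1r, a receptor of peptide YY, was at 9.70 and 63.2 CPM (2.58), Sstr1, a receptor of somatostatin, is given above, and Dpp4, the enzyme that inactivates GLP-1, was at 40.6 and 37.8 CPM (-0.10). Sstr2 had 3 and 20 UMIs. Rxfp4, the receptor of insulin-like peptide 5, had 3 and 1.

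**Figure D5:**
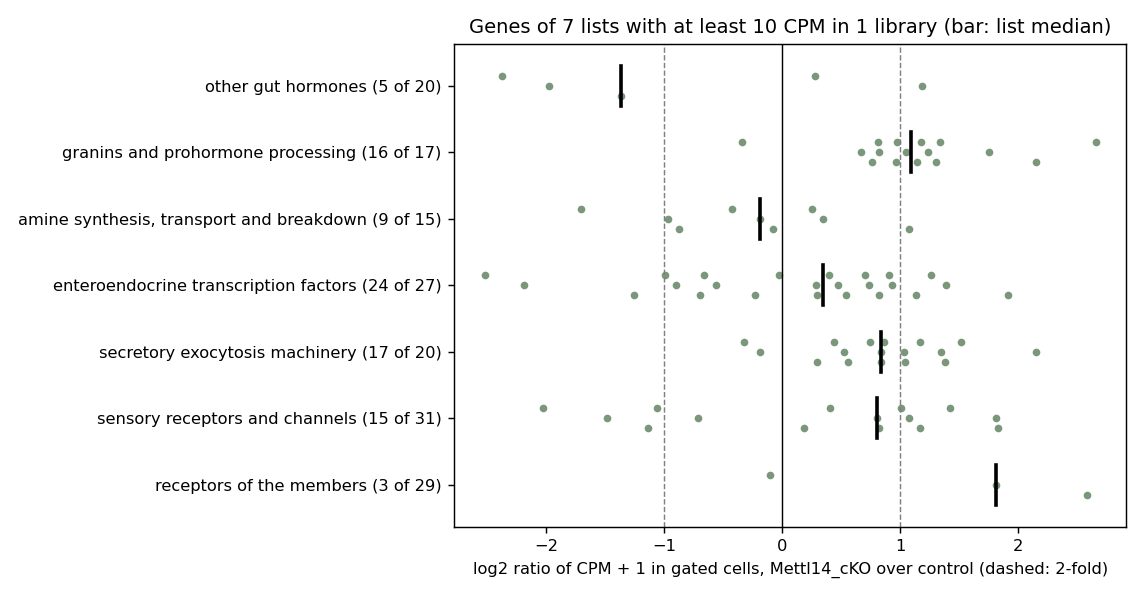
Log2 ratio of CPM + 1 in gated cells, Mettl14_cKO over control, of each gene with at least 10 CPM in 1 library, by list (points), with list medians as bars and the numbers of genes shown of each list in parentheses; dashed lines mark 2-fold. Granins and prohormone processing genes lie between -0.34 and 2.66 with a median of 1.10, and the other gut hormones have a median of -1.37.

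Cells rich in a hormone but outside the gate came mostly from the control. Cells with at least 50 UMIs of any of the 9 genes numbered 66 inside and 28 outside the gate among control cells, and 96 and 15 among Mettl14_cKO cells. The 28 control cells held a median of 1 UMI of Chga and Chgb and 7845 UMIs in all, and 16 of them held Neurod1. Muc2, the goblet cell mucin, was at 5178 CPM in those 28 cells, against 1632 CPM in the 66 inside the gate, and their median doublet score was 0.108 against 0.0632. What share of these cells was 2 cells in 1 droplet was not tested. Results that this touches are given above with the widened gate, for Gcg, Pyy, Nts, Sst and Insl5. The gate by 10 other markers is given for Gcg, Pyy, Insl5, Cck and Tph1.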

How the data were processed

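The deposited matrices held raw counts of UMIs for 31053 genes in 10181 control and 9225 Mettl14_cKO barcodes, which the authors produced with Cell Ranger. The submitters' processing notes give its version as 3.0.0 and the file headers as 3.1.0, and the notes also name Seurat 3. Build and annotation: not given in the sources used here; gene positions are from GENCODE M21 (GRCm38) and promoter sequences from RefSeq (GRCm38.p6). M14 was read as Mettl14. Barcodes with at least 500 genes and under 25% mitochondrial counts were kept (1027 and 2100 removed), and doublets were called at a Scrublet score of 0.25 or more (77, 0.841%, and 53, 0.744%), since the automatic threshold marked 0 and 1.

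Counts of a gene were summed over the gated cells of a library and divided by all UMIs of those cells, 2268424 and 2595577, to give CPM. A pseudocount of 1 CPM was used in log2 ratios. No test was possible with 1 library per genotype; a gene is called higher or lower past 2-fold, among genes with at least 10 CPM in 1 library and 10 UMIs. The sums and intervals were run on simulated Poisson counts. Such counts follow the assumption of the intervals and lack the spread between cells, so the run checked the code only. The 9 genes, the lists and the doublet score were chosen with earlier results of these data known. Genes of the lists were named where they were among the 4 highest of a list in either library or past 2-fold; a few genes that the rule names are not reported here. Alternatives were other gates, detection minimums, filters, scalings and pseudocounts, equal weights for cells, thinning and leaving out the 5 richest cells. Scripts ran in Python 3.11.15 with scanpy 1.11.5, pandas 2.3.3, scipy 1.17.1 and numpy 2.4.6.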

Additional observations from a re-analysis of the deposited data

How the results depend on the processing

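Each result was recomputed under up to 12 other settings; 2 of them, the gate widened to cells with at least 10 UMIs of 1 of the 9 genes and the gate set by 10 other enteroendocrine markers, were chosen after seeing the data. None of the log2 ratios called past 2-fold turned direction in the 12 settings used for them, which leave out thinning. Thinning to 2000 UMIs per cell was planned for shares only. Thinned, Sst was at 378 and 366 CPM, slightly lower in Mettl14_cKO cells, where the main ratio was 2.87. Pyy was at 27845 and 35800 CPM, under 2-fold. With each cell given the same weight 3 of the 9 genes were at least 2-fold lower, and without the 5 richest cells, or with the gate by 10 other markers, 2 were. With that gate 2 were at least 2-fold higher. The ratio of gated shares ran from 2.10 to 2.78 over 8 settings. Log2 ratios kept their sign for Pyy, Insl5, Ppy, Sst, Cck and Tac1 in 12 of 12 settings, and not for Gcg (-0.86 to 0.52), Nts (-4.64 to 1.60) or Tph1 (-0.74 to 0.27). Ppy ran from 0.30 to 6.10. Differences in the share of detecting cells changed sign for Pyy (-9.63 to 2.53 percentage points), Cck (-1.82 to 10.6), Tph1 (-12.5 to 12.6), Sst (-0.245 to 1.36) and Ppy (-1.34 to 0.0419). The causes were not tested. Leaving out a replicate could not be done with 1 library per genotype. No paired analysis was possible because each genotype had 1 library of pooled mice.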

Other observations

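Hoxb13, a homeobox gene of the most distal colon, was looked up with other homeobox genes after the Insl5 values were seen, because Insl5 is a hormone of the distal colon. In gated cells it was at 116 CPM in the control and 95.9 CPM in the Mettl14_cKO library, and in ungated cells at 94.6 and 69.5 CPM. In Pyy cells it had a UMI in 22 of 41 control cells and 12 of 77 Mettl14_cKO cells, at 242 and 117 CPM. Hoxb9 had a UMI in 27 and 48 of these cells, and Hoxb8 in 12 and 42. Hoxa13 and Hoxd13 went the other way in Pyy cells, on few UMIs. Hoxa13 was at 12.1 and 16.7 CPM (6 and 15 UMIs), and Hoxd13 at 2.01 and 12.3 CPM (1 and 11 UMIs). Gata4 and Pdx1, of the upper gut, had 1 UMI each over the gated cells of both libraries. The sources used here do not say from which stretch of the colon the cells of each library came, and its part in the Insl5 values was not tested.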
